A study of Mus musculus with 8 samples.

Results

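Levels and Argonaute binding were followed for 8 genes that mark neural progenitor cells, namely Sox1, Pax6, Msi1, Nes, Vim, Fabp7, Prom1 and Slc1a3. Their probes were taken by gene name from the array annotation, without use of any measured value. The 8 genes themselves were chosen with earlier results of these data known. All 8 were found, on 12 of 55681 non-control probes and 13 of 59305 non-control spots, among 36163 gene names in all. Total RNA and RNA co-immunoprecipitated with Argonaute (Ago-RNA) were hybridized to one-color Agilent mouse arrays at 4 stages of the neuralization of E14Tg2A cells, a mouse embryonic stem (ES) cell line of the 129/Ola strain. Before differentiation, at day 0 in vitro (0 DIV), ES cells were kept in serum and leukemia inhibitory factor (LIF). Epiblast-like aggregates (ELA) at 2 DIV floated in a chemically defined minimal medium with N2 and B27 supplements and without serum or LIF. Neural progenitor cells (NPC) at 6 DIV had been dissociated and grown as an adherent layer in that same medium, and neural precursors (NPC/Neu) at 10 DIV had been dissociated again and grown without B27. The Ago-RNA came from cytoplasmic RNA-protein complexes captured with the pan-Ago antibody 2A8, so it was set against total RNA of whole cells rather than of the same fraction. Each condition had 1 array, which held RNA pooled from 3 independent experiments on a single cell line. No value below therefore has a replicate, and no p-value is given.

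Neural progenitors are the dividing cells of the neural tube wall from which neurons and glia descend. Entry into the neural lineage is marked by the transcription factor Sox1, and Pax6 follows in dorsal and forebrain progenitors, which later take the form of radial glia with long processes that reach the ventricle and the pial surface. Msi1 (Musashi 1) is an RNA-binding protein that holds progenitors in a dividing state by repressing the translation of its targets. Nes (nestin) and Vim (vimentin) are intermediate filament proteins of progenitors, and Vim is also abundant in mesenchymal cells. Fabp7 is the brain lipid-binding protein of radial glia, Prom1 (prominin 1, CD133) is a glycoprotein of membrane protrusions on the apical face of progenitors, and Slc1a3 (GLAST) is the glutamate transporter of radial glia and astrocytes. Argonaute proteins carry microRNAs to matching messenger RNAs, whose translation and stability they lower.

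Signals are given as quantile-normalized log2 values, on which a difference of 1 is a 2-fold change. The log2 signal on the Ago-RNA array minus that on the total RNA array of the same stage is called Ago enrichment, and its change between stages is called the variation of Ago enrichment. In place of replicates, technical spread was read from 399 probes printed in 10 spots each. The standard deviation of a difference over spots in the same positions is called the spot SD. It was taken from probes of similar brightness, judged by the mean log2 signal over all 8 arrays. For a marker dim at one stage and bright at another it can therefore understate the spread at the dim stage. For the total RNA change from ES to ELA it was 0.25 for probes with a mean below 8 and 0.07 above 11. The spot SD leaves out the spread between cultures, between immunoprecipitations and between labelings. All 8 arrays lay on 1 slide, between 53.4% and 61.2% of their spots were well above background by the criterion of the scanner software, and 0 non-control spots were saturated. Precision is limited by the small number of arrays.

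Probe positions bear on several results, because Sox1, Pax6, Msi1 and Prom1 each had 2 probes of 60 bases and these did not always give the same answer. Those of 1 probe each for Pax6, Msi1 and Sox1 are shown here, 5′ to 3′. The changes on each differed in size or in direction from those on the second probe of its gene. In the Pax6 probe the capitals mark the bases on either side of an exon junction, so it can only be matched whole by spliced RNA. In the Msi1 probe the capital marks the base at which it differs from the mm9 genome, G25T, with the probe base first and the position counted from 1 at the 5′ end.
Pax6 probe 1, coding exons, chr2:105524098-105524949 (mm9, plus strand): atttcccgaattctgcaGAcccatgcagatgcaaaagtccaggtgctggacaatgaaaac
Msi1 probe 2, coding exon, chr5:115890516-115890575 (mm9, plus strand): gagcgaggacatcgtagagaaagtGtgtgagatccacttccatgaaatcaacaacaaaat
Sox1 probe 1, chr8:12397503-12397562 (mm9, plus strand): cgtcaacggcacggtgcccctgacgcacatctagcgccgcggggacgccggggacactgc

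The Sox1 probe 1 had a GC content of 73.3%, against 43.3% for Sox1 probe 2 at chr8:12399496-12399555. GENCODE vM1 holds no Sox1 gene, and both Sox1 probes lie in an intron of Gm5607 on the same strand. The 2 array probes named Gm5607 stayed dim in total RNA, between 5.98 and 7.76, and only 1 of them was well above background there, at NPC and NPC/Neu. Pax6 probe 2, printed in 2 spots at chr2:105536454-105536513, covers the end of the coding sequence in most of the transcripts it matches. Msi1 probe 1 lies in the 3′ UTR at chr5:115904030-115904089. Prom1 probe 1 lies in coding sequence at chr5:44397410-44397469 and Prom1 probe 2 at the 3′ end of the gene at chr5:44384861-44384920. The single probes of Nes (chr3:87784303-87784362), Vim (chr2:13504232-13504291), Fabp7 (chr10:57508039-57508098) and Slc1a3 (chr15:8584236-8584295) all lie in 3′ UTRs. Apart from the exon-spanning Pax6 probe and the mismatched Msi1 probe, each probe matched the genome in 1 place.

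In total RNA, 7 of the 8 markers were at least 2-fold higher in NPC/Neu than in ES cells, from 2.98-fold for Prom1 to 1380-fold for Fabp7, and Slc1a3 lay just under that limit at 1.98-fold. The median of the 8 differences was 2.50 on the log2 scale, while the median over all 36149 genes with a value was -0.02. A difference of at least 1 in that direction was seen for 11.3% of all genes, and 4 of the 8 markers (Sox1, Nes, Vim and Fabp7) reached 2.5, as 2.96% of all genes did. Sox1, at 2.56, was the mean of 0.34 and 4.78 on its probes, and Msi1, among the 7, was the mean of -0.34 and 4.04. Which markers reached 2.5 also depended on the processing. Pax6, at 2.44, read 2.75 to 4.05 under 5 of 8 alternatives, and Msi1 read 2.51 with the processed signal of the scanner software, quantile normalized. Sox1 read 2.42 when each kind of RNA was normalized on its own, and Nes 2.22 with 75th percentile scaling of the processed signal. None of the 8 was lower by 1 or more, a size that 11.3% of all genes reached. Because these are bulk samples, fewer cells of a type and less RNA per cell cannot be told apart.

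**Figure D1:**
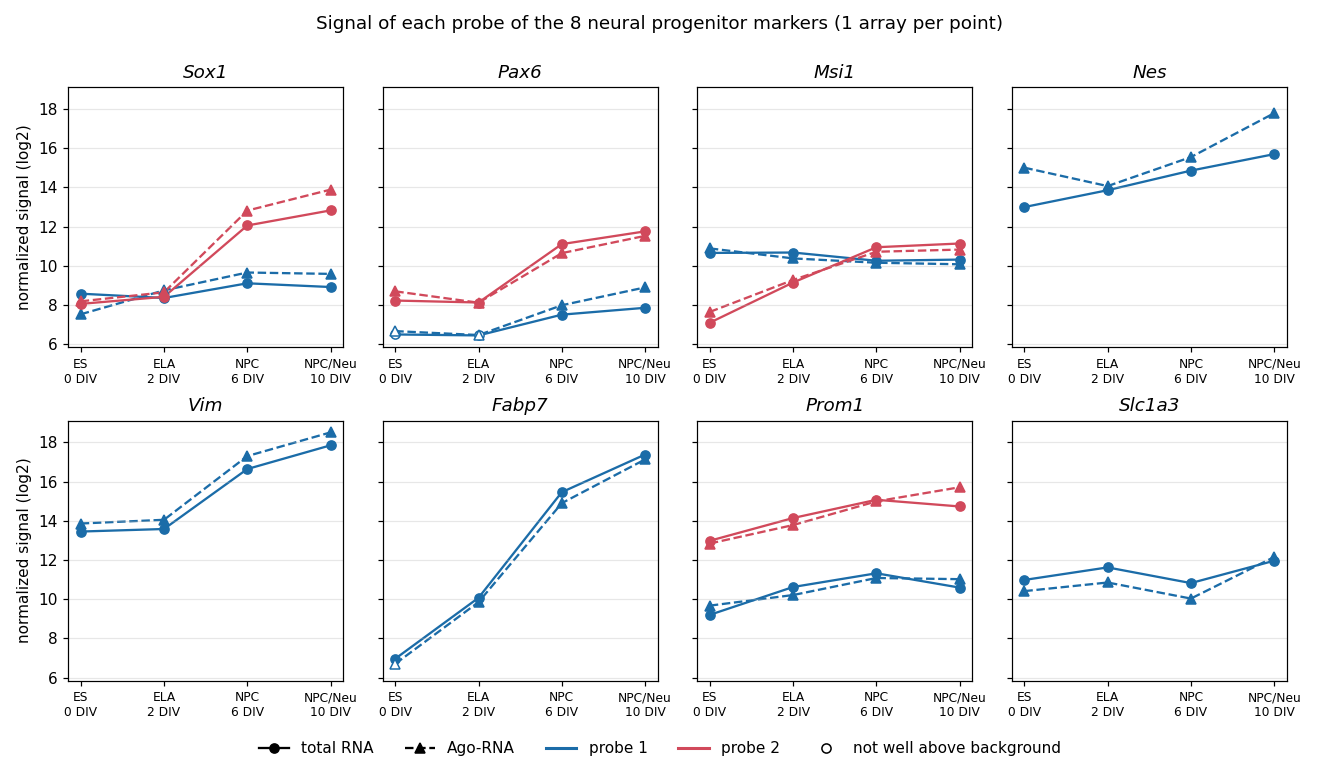
Quantile-normalized log2 signal of each of the 12 probes (vertical axis) at the 4 stages (horizontal axis), with circles and solid lines for total RNA, triangles and dashed lines for Ago-RNA, blue for probe 1 and red for probe 2. Each point is 1 array and open points were not well above background. Fabp7 spans the widest range, from 6.96 to 17.38 in total RNA, while the 2 Msi1 probes cross and the Nes lines part in ES cells and in NPC/Neu.

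The markers did not move at the same step. From ES to ELA the median difference of the 8 in total RNA was 0.75, against 0.01 over all genes, and 3 of them (Msi1, Fabp7 and Prom1) were higher by at least 1, as 3.04% of all genes were. Msi1, at 1.03, was the mean of 0.02 and 2.05 on its probes, and it fell under 1 with each kind of RNA normalized on its own (0.98) and with irregular spots kept (0.99). From ELA to NPC the median was 1.51 against -0.01, and 4 (Sox1, Pax6, Vim and Fabp7) passed 1, as 7.13% of all genes did. Nes stopped just short of that limit, at 1.00 after rounding, and passed it with each kind of RNA normalized on its own (1.05) and, barely, with irregular spots kept. From NPC to NPC/Neu the median was 0.67 against -0.02, and 3 (Vim, Fabp7 and Slc1a3) passed 1, as 3.65% of all genes did, although Vim was at 0.64 with 75th percentile scaling of the processed signal. A difference of 2.5 was passed by Fabp7 from ES to ELA (0.133% of all genes) and by Vim and Fabp7 from ELA to NPC (1.14%), and by none from NPC to NPC/Neu (0.393%). Pax6, at 2.02 from ELA to NPC, also passed 2.5 under 4 alternatives, at 2.53 to 3.46, among them the use of only probes well above background (2.97). None was lower by 1 or more at any of these steps, where 3.09%, 6.62% and 2.69% of all genes were.

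**Figure D2:**
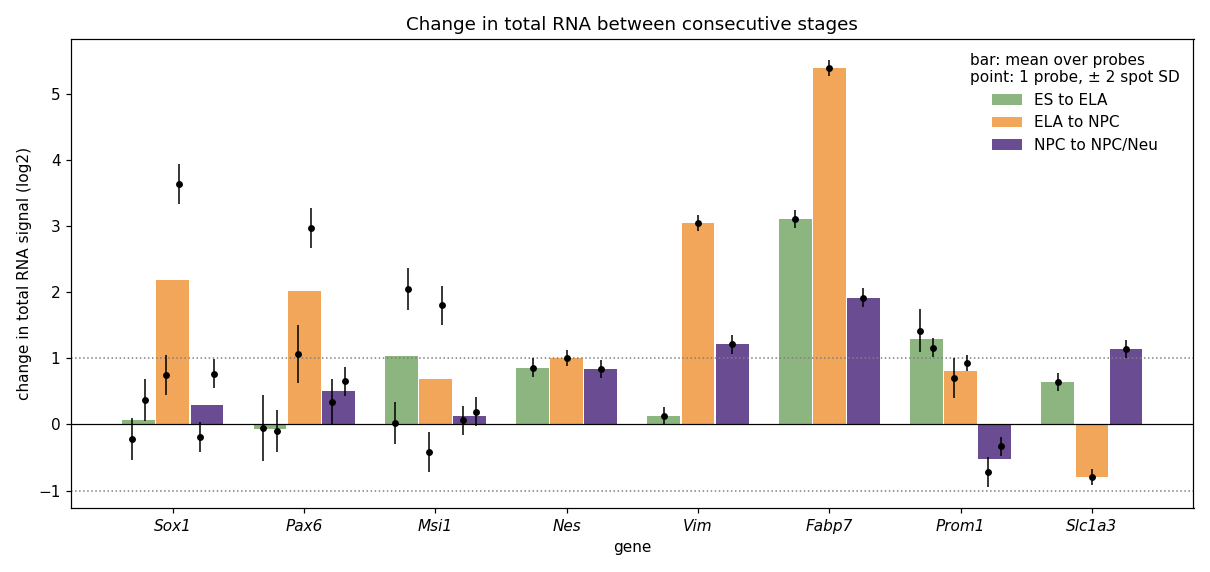
Log2 change in total RNA signal between consecutive stages (vertical axis) for each marker (horizontal axis), as bars for the mean over probes and points for single probes with bars of 2 spot SD. Dotted lines mark changes of 1 and -1. The ELA to NPC bar is the tallest for Sox1, Pax6, Nes, Vim and Fabp7, the ES to ELA bar for Msi1 and Prom1, and the NPC to NPC/Neu bar for Slc1a3.

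Sox1, a SOX family factor that marks the neural plate, was at its highest in the last 2 stages. In total RNA probe 2 read 8.06 in ES cells and 8.42 in ELA, then 12.06 in NPC and 12.83 in NPC/Neu. The step from ELA to NPC was thus 3.64, or 12.5-fold, against a spot SD of 0.15. The order of the stages was ES, ELA, NPC, NPC/Neu, and every neighboring pair differed by more than 2 spot SD. Probe 1, the GC-rich probe, gave a much flatter profile of 8.58, 8.36, 9.11 and 8.92. It was higher in NPC than in ELA by 0.75, while its ES and ELA values and its NPC and NPC/Neu values did not differ beyond 2 spot SD. The gene mean of 2.19 for the ELA to NPC step is the mean of these unequal values.

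Pax6, a paired-box and homeobox factor of forebrain, eye and spinal cord progenitors, was likewise low in the first 2 stages and higher in the last 2. Probe 2 read 8.23 and 8.13 in ES cells and ELA, and 11.11 and 11.76 in NPC and NPC/Neu, in total RNA. ES and ELA did not differ beyond 2 spot SD, and NPC lay 2.97 above ELA, or 7.85-fold. The exon-spanning probe 1 gave 6.50, 6.45, 7.51 and 7.86, and was not well above background in ES cells and ELA. Its NPC/Neu signal was at least 2.17-fold that in ES cells and its NPC signal at least 1.47-fold that in ELA, with the lowest signal well above background on the dimmer array taken as the bound. Both probes thus gave the same order of the upper stages, with a larger difference on the brighter probe. The Pax6 locus, from its first to its last annotated base at chr2:105509053-105543317 (mm9), holds many transcripts, of which the 2 probes matched 9 and 17.

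Msi1, which binds RNA to hold back translation, was the marker whose probes went in opposite directions from ES to NPC/Neu. The coding probe 2 read 7.10 in ES cells, 9.15 and 10.95 in ELA and NPC, and 11.14 in NPC/Neu, a difference of 4.04 or 16.4-fold from first to last. The 3′ UTR probe 1 read 10.66, 10.68, 10.26 and 10.32 and ended 0.34 below its ES value. On probe 2 the stages were ordered ES, ELA, NPC and NPC/Neu, and the last 2 did not differ beyond 2 spot SD. On probe 1 neither ES and ELA nor NPC and NPC/Neu differed beyond 2 spot SD, and the earlier pair was the higher one. The gene mean, 1.85 from ES to NPC/Neu, therefore describes neither probe. Which transcripts of the locus (chr5:115879608-115905707, mm9) each probe measures in these cells was not tested.

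The filament genes Nes and Vim were both bright at every stage, and both were higher in the later ones. Nes in total RNA read 13.00, 13.86, 14.86 and 15.70 at 0, 2, 6 and 10 DIV. These are 3 steps of similar size, 0.86, 1.00 and 0.84, each beyond 2 spot SD. Vim read 13.45, 13.58, 16.64 and 17.85. For Vim the step from ELA to NPC, 3.05 or 8.30-fold, took up most of the 4.40 between ES and NPC/Neu. Both genes were well above background in ES cells already.

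Fabp7, which carries long-chain fatty acids in radial glia, had the largest difference in total RNA between ES and NPC/Neu of all 36149 genes. Its signal went from 6.96 in ES cells through 10.07 in ELA and 15.46 in NPC to 17.38 in NPC/Neu. The steps were 3.11 (8.66-fold), 5.39 (41.9-fold) and 1.92 (3.79-fold), and the whole came to 10.43. With the processed signal, quantile normalized, the step from ES to ELA was 4.62 and the whole 12.08, and with an offset of 0 they were 3.80 and 11.18. With the processed signal of the scanner software in place of the normexp correction it ranked 3 of 36149. The ES signal lay close to the lowest well above background on that array, 6.74, so that the fold from ES depends on how the background was corrected. In Ago-RNA the ES signal, 6.70, was not well above background, and NPC/Neu, at 17.13, was at least 1360-fold higher.

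Prom1, on the apical membrane of progenitors, was highest in total RNA at NPC on both probes. Probe 2 read 12.98 in ES cells, 14.14 in ELA and 15.07 in NPC, and came back to 14.73 in NPC/Neu. Probe 1 read 9.20, 10.62, 11.32 and 10.59, and its ELA and NPC/Neu values did not differ beyond 2 spot SD. Both probes were higher in ELA than in ES cells, by 1.16 and 1.42, and both were lower in NPC/Neu than in NPC, by 0.33 and 0.72. Prom1 was the only one of the 8 with a gene mean lower in NPC/Neu than in NPC, by 0.53.

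Slc1a3, the glutamate transporter, had a profile of its own shape. Its 4 total RNA values, in stage order, were 10.98, 11.62, 10.82 and 11.96. It was the only member with less total RNA in NPC than in ELA, by 0.79, and its NPC value was also below that of ES cells by 0.15. From NPC to NPC/Neu it was higher by 1.14, or 2.20-fold. All neighboring stages in its order, NPC, ES, ELA and NPC/Neu, differed beyond 2 spot SD. For NPC and ES cells this held with the spot SD of bright probes, 0.07, but not with that over all 399 probes, 0.15.

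The Ago-RNA arrays followed the total RNA arrays for most of these genes. The median Ago enrichment of the 8 was 0.24 in ES cells and 0.53 in NPC/Neu, with -0.04 in ELA and -0.07 in NPC between them, against medians between 0.00 and 0.03 over all genes. As a mean over probes, an Ago enrichment of at least 1 was found for Nes alone in ES cells (6.56% of all genes). In NPC/Neu it was again found for Nes alone (7.34%). At both stages Nes also reached 2, as 0.501% and 0.789% of all genes did, but with 75th percentile scaling of the processed signal it read 1.86 and 1.59. Taken alone, Sox1 probe 2 (1.06) and Pax6 probe 1 (1.04) also passed 1 in NPC/Neu, where the other probes of these genes read 0.66 and -0.23. With each kind of RNA normalized on its own, Sox1 (1.18) and Prom1 (1.06) reached 1 in NPC/Neu too. In ELA (2.43%) and NPC (3.59%) none of the 8 reached 1, with Nes in NPC going from 0.70 to 1.00 when each kind of RNA was normalized on its own. Vim was above 0 at all 4 stages, at 0.41, 0.47, 0.66 and 0.66, and Fabp7 was below 0 at all 4, at -0.26, -0.22, -0.56 and -0.25, with the ES value resting on a dim Ago-RNA signal. That ES value was -1.71 and -2.32 with the processed signal, and the ELA value was 0.07 with each kind of RNA normalized on its own.

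**Figure D3:**
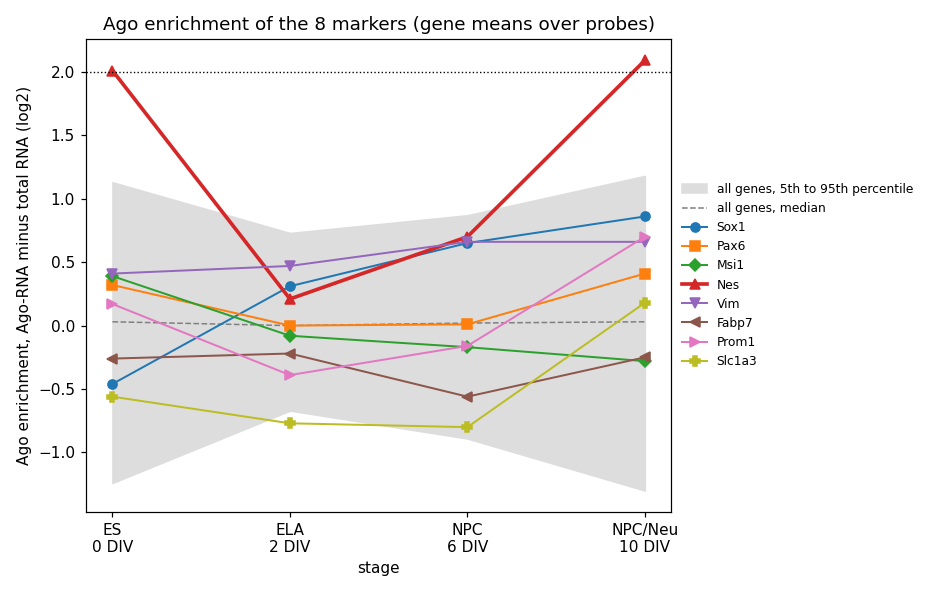
Ago enrichment, the log2 Ago-RNA signal minus the log2 total RNA signal (vertical axis), at the 4 stages (horizontal axis) for each marker as the mean over its probes, with the 5th to 95th percentile of all genes in gray and the limit of 2 dotted. Nes stands at 2.01 in ES cells and 2.09 in NPC/Neu, above the gray band, and at 0.21 in ELA, inside it.

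Nes had the highest Ago enrichment of the 8 in ES cells, in NPC/Neu and, by a small margin over Vim (0.70 against 0.66), in NPC, but not in ELA. Its Ago-RNA signal was 15.01, 14.07, 15.55 and 17.79 at 0, 2, 6 and 10 DIV, beside the total RNA values given above. From ES to ELA its Ago-RNA was thus lower by 0.94 while its total RNA was higher by 0.86. Ago enrichment was high at both ends, at 2.01 in ES cells and 2.09 in NPC/Neu, and lower between, at 0.21 in ELA and 0.70 in NPC, against spot SDs between 0.05 and 0.08. The ES and NPC/Neu values lay at percentiles 99.52 and 99.42 of all genes, and the ELA value at percentile 74.44.

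The variation of Ago enrichment of Nes from ES to ELA was -1.80, and 4.41% of all genes had -1 or less at this step. By the study's rules a messenger RNA is released when it is bound in the first stage and its enrichment then falls. Bound means an Ago-RNA signal above a background limit, 7.83 as fitted here, and an enrichment of at least 2. The fall must be 1.5 or more, to 0.5 or less. For later analyses the study relaxed the limit of 0.5, which was not done here. Nes was the 1 member among the 100 genes so called from ES to ELA, 0.277% of all gene names. Its ES enrichment sat at the limit of 2, and it was 1.92 and 1.86 with the processed signal of the scanner software, so that the call was lost there although the variation stayed at -1.74 and -1.71. It was also lost with each kind of RNA normalized on its own, where the ELA enrichment was 0.66. From NPC to NPC/Neu the variation of Nes was 1.40, where 1.71% of all genes had 1 or more. It was 1.10 with each kind of RNA normalized on its own and 0.88, under the limit, with 75th percentile scaling of the processed signal. Slc1a3, at 0.98 for this step, passed 1 under 5 alternatives, at 1.01 to 1.24. As a mean over probes, no member had a variation of 1 or more from ES to ELA (5.14%) or of -1 or less from NPC to NPC/Neu (3.0%). From ELA to NPC none had 1 or more (1.89%) or -1 or less (2.45%). The Sox1 mean from ES to ELA joined 1.44 on probe 1 and 0.09 on probe 2. With the processed signal, however, the variation from ES to ELA was 1.08 and 1.36 for Sox1 and 1.41 and 2.00 for Fabp7, quantile normalized and scaled to the 75th percentile in turn.

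Ago enrichment was higher for longer messenger RNAs on these arrays. In ES cells its median was -0.71 in the shortest of 10 length classes and 0.92 in the longest. Nes is a long one, with a longest annotated transcript of 6126 bases. Among 1400 genes with an Ago-RNA signal above 7.83 at some stage and a longest transcript of 4774 to 6254 bases, the median Ago enrichment over the stages in order was 0.70, 0.25, 0.36 and 0.68. The 95th percentiles of those genes were 1.69, 1.09, 1.19 and 1.76. Nes was above the 95th percentile of genes of its length in ES cells and in NPC/Neu, and between the median and the 95th percentile in NPC. In ELA its 0.21 was slightly under the median. Slc1a3, with 4163 bases, lay below the 5th percentile of its own length class in ELA and NPC, at -0.77 against -0.44 and at -0.80 against -0.68. Pax6, with 8401 bases, lay under the median of its class at all 4 stages as the mean of its probes. In NPC/Neu, however, its probe 1 alone was above that median, at 1.04 against 0.92, and probe 2 was at -0.23. Fabp7, with 880 bases, fell in the shortest class, whose medians in stage order were -0.71, -0.16, -0.17 and -0.40. Its negative values lay above the class median in ES cells, on a dim signal, and in NPC/Neu. They lay below it in ELA and NPC, and inside the 5th to 95th percentile of the class at all 4 stages.

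Sox1 had Ago enrichments of -0.46, 0.31, 0.65 and 0.86 over the 4 stages, but the negative ES value came from probe 1 (-1.05), while probe 2 read 0.14 there. From ES to NPC/Neu the variation of Sox1 was 1.32. In NPC and NPC/Neu the Sox1 probes were closer, at 0.55 and 0.75 and at 0.66 and 1.06. Prom1 had 0.17, -0.39, -0.16 and 0.70, and its NPC/Neu value was 0.42 on probe 1 and 0.98 on probe 2. Slc1a3 had -0.56, -0.77, -0.80 and 0.18, as its Ago-RNA went from 10.03 in NPC to 12.15 in NPC/Neu. Msi1 had 0.39, -0.08, -0.17 and -0.28. The 2 Msi1 probes, whose total RNA profiles differed so much, had enrichments of 0.22 and 0.55 in ES cells. In NPC/Neu they had -0.24 and -0.31, so that their signs were the same at both stages. In ELA the Msi1 probes read -0.29 and 0.13, of which only the -0.29 was beyond 2 spot SD. Pax6 had 0.32, 0.00, 0.01 and 0.41, and in NPC and NPC/Neu its probes had opposite signs, each beyond 2 spot SD. Probe 1 read 0.48 in NPC and 1.04 in NPC/Neu, while probe 2 read -0.46 and -0.23.

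To place the 8 markers, other genes of the same cells were read from a list of 20 further genes of neural progenitors and radial glia, all on the array. From ES to NPC/Neu 15 of the 20 were higher in total RNA by at least 1 and 0 lower by 1, with a median of 3.11. From ELA to NPC 11 were higher by at least 1 (median 2.34), from ES to ELA 5 were, with 1 lower, and from NPC to NPC/Neu 4 were. The largest difference was that of Hes5, a target of Notch signaling that keeps progenitors from differentiating, with 8.97 and 11.30 in the first 2 stages and 16.28 and 16.19 in the last 2. At the other end Glul (glutamine synthetase) read 13.77, 13.14, 13.23 and 13.33. The astrocyte filament gene Gfap was flat and dim, between 6.81 and 6.95 in total RNA.

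Markers of other cell types are given beside the progenitor markers. All 10 pluripotency genes on the array were lower in NPC/Neu than in ES cells by at least 1 (median -4.90). From NPC to NPC/Neu, however, 4 of them were higher by at least 1 and 0 were lower by 1, with a median of 0.61. Pou5f1 (Oct4) read 15.21 and 14.76 in ES cells and ELA but 7.98 and 8.31 in NPC and NPC/Neu, and Klf4 had the smallest difference of the list, -1.97. Of 11 neuronal genes 10 were higher by at least 1 from NPC to NPC/Neu (median 2.19), and the neurofilament gene Nefm went from 10.57 to 13.10 at that step. The synaptic vesicle gene Syp, by contrast, read 12.01 in NPC and 12.58 in NPC/Neu. The progenitor markers Vim, Fabp7 and Slc1a3 were thus higher by at least 1 at the same step as most neuronal genes. The share of neurons in the NPC/Neu culture was not tested.

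Among 10 genes of mesenchymal and muscle cells, which also make Vim, 6 were higher by at least 1 from ELA to NPC and 1 was lower, with a median of 1.18. The median level of that list in total RNA was 8.43, 8.87, 9.56 and 8.75 in stage order, and 8, 7, 10 and 10 of its genes were well above background. Its collagen gene Col3a1 read 7.17, 6.93, 9.13 and 11.41, and Thy1 read 12.42, 13.92, 8.13 and 7.22. The part of such cells in the Vim signal was not tested. Of 10 mesoderm and endoderm genes 3 were higher by at least 1 in NPC/Neu than in ES cells (median 0.32), among them Foxa2, a factor of endoderm and of the floor plate of the neural tube, at 6.76 in ES cells and 10.10 in NPC/Neu, while Gata4 read 7.64 and 6.98. Of 5 neural crest genes 0 were higher by at least 1, and Foxd3, also active in ES cells, went from 12.60 to 7.29, while Sox10 was higher in NPC/Neu by 0.71. Of 6 genes of the oligodendrocyte lineage 3 were higher by at least 1, with Olig2 at 6.48, not well above background, in ES cells and 9.31 in NPC/Neu, and Mag at 7.90 and 7.46. Of 5 genes of the primed epiblast 3 were higher by at least 1 in ELA than in ES cells (median 1.15), and 3 were lower by at least 1 in NPC/Neu than in ES cells, with Dnmt3b at 16.35, 17.67, 12.12 and 11.68 over the 4 stages and Lef1 at 11.97, 13.11, 11.79 and 12.42.

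**Figure D4:**
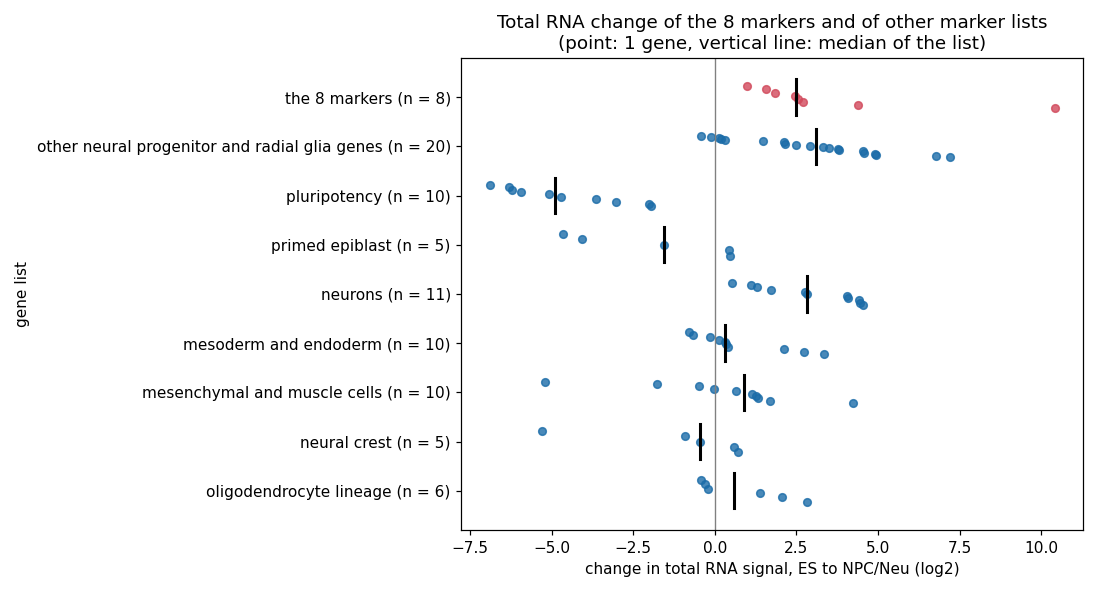
Log2 change in total RNA signal from ES to NPC/Neu (horizontal axis) for the 8 markers in red and for the genes of 8 other marker lists in blue (vertical axis), 1 point per gene, with the median of each list as a vertical line. The medians are 2.50 for the 8 markers, 3.11 for the other progenitor genes, -4.90 for pluripotency genes and 2.83 for neuronal genes.

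For each marker the 2 genes with the most similar profile were sought among 23097 genes well above background on at least 4 of the 8 arrays, by the root mean square difference of the 8 log2 values after each gene was centered on its own mean. This is a description over 8 arrays of 4 cultures. Nes was followed most closely by Gprasp1, at 0.16, which had total RNA values of 13.25, 13.91, 14.90 and 15.48 and Ago-RNA values of 14.93, 14.26, 15.83 and 17.90, and then by Aacs at 0.24. Vim was followed by Pcdh10 (0.17), and Pax6 by Slc39a6 (0.14) and Scube2 (0.15). Sox1 was followed by TC1639085 (0.22) and the cadherin gene Cdh6 (0.24), Msi1 by Fam102b (0.13) and Dynll1 (0.14), Prom1 by Armcx3 (0.20) and Mpped1 (0.21), and Slc1a3 by ENSMUST00000097948 and Raly (both 0.21). No gene came near the profile of Fabp7, for which the nearest was 2610017I09Rik at 1.01.

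Since Fabp7 and Sox1 were both low in ES cells and higher in NPC, their promoters were read from RefSeq (GRCm38.p6), which held a promoter window of 300 bases for 7 of the 8 genes, with 2 each for Pax6 and Prom1. The 250 bases before and 30 after each start are shown, with motif matches on either strand in capitals.
Fabp7, chr10:57784673-57784952 (GRCm38.p6, plus strand): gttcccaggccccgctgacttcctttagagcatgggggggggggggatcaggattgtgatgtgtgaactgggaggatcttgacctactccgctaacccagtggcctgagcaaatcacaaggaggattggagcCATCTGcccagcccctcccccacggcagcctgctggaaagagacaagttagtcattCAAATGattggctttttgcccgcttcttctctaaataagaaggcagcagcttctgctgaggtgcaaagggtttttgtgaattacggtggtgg
Sox1, chr8:12395269-12395548 (GRCm38.p6, plus strand): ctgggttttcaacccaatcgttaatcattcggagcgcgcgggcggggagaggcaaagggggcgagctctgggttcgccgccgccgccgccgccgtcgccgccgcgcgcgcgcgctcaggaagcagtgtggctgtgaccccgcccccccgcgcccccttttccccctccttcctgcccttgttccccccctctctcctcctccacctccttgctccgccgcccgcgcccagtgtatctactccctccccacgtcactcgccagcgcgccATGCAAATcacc

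In Fabp7 the capitals are 2 E-boxes (CANNTG), letters that 72.3% of 32851 promoter windows held. In Sox1 they are 1 POU octamer (ATGCAAAT), which 1.74% of the windows held, and it lies after the start. The Sox1 window had a GC content of 70.7%, against a median of 52.7% over all windows, and that of Fabp7 54.0%. The motifs AACAAT (10.7% of windows), ACAAAG (18.7%) and GTGGGAA (6.38%) were not matched in either window, and ACAAAG was matched in 1 of the Pax6 windows. The letters TATAAA, held by 13.6% of the windows, were matched in those of Vim and Slc1a3. A match of letters is not evidence that a factor bound there.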

How the data were processed

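Total RNA and Ago-RNA were measured on 8 one-color Agilent arrays, 1 for each of 4 stages of each kind of RNA, and samples were grouped by their labels. The intensity files deposited by the authors come from Feature Extraction 10.7.3.1 and give each spot's mean, local background and processed signal, not normalized between arrays. Here the normexp correction of limma 3.58.1 (R 4.3.3) was applied with an offset of 50, irregular spots (125 to 523 per array) were left out, and all 8 arrays were quantile normalized on the log2 scale, which removes differences in overall RNA recovery. Spots of a probe and then probes of a gene were averaged. The limit of 7.83 for bound RNA lies 3 SD above the mean of the lower Gaussian component that mclust 6.1.1 fitted to the Ago-RNA arrays. Further steps used Python 3.11.15, numpy 2.4.6 and pandas 2.3.3. Probes were matched to mm9 and GENCODE vM1, the build of the array annotation.

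No test was possible with 1 array per condition, and values were set beside the spot SD and beside all genes. The total RNA change was called at 1 and 2.5, Ago enrichment at 1 and 2 and its variation at 1 and 1.5 (log2). A fold written as "at least" sets the brighter stage against the lowest signal well above background on the dimmer array. Named are the 8 markers with each probe, from each marker list the genes with the largest difference in either direction from ES to NPC/Neu, and for each marker the 2 genes of nearest profile, of which the second is not reported here for Vim and Fabp7. Gfap and Gm5607 were named after their values were seen. The markers and the lists were chosen with earlier results of these data known. Alternatives were offsets of 0 and 16, the processed signal (quantile normalized, or scaled to the 75th percentile), quantile normalization within each kind of RNA, probes well above background only, irregular spots kept, and the median over probes. The procedure was tested on simulated data. Control immunoprecipitations, ribosome profiling and protein data were not used here.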

Additional observations from a re-analysis of the deposited data

Results flagged for a closer look

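For 4 of the 8 markers Ago-RNA was above total RNA at one stage and below it at another, by more than 2 spot SD each time. The share of all genes with such a change of sign was not computed, so whether this count is unusual is not known. Over all genes the 5th to 95th percentile of Ago enrichment was -1.24 to 1.13 in ES cells and -0.67 to 0.73 in ELA. It was -0.89 to 0.87 in NPC and -1.3 to 1.18 in NPC/Neu. The difference between the stages was not tested, since each condition had 1 array. Sox1 had an Ago enrichment of -0.46 in ES cells and 0.86 in NPC/Neu, and the ES value came from probe 1 (-1.05), with 0.14 on probe 2. Msi1 had 0.39 in ES cells and -0.28 in NPC/Neu, the latter 0.10 when each kind of RNA was normalized on its own. Prom1 had -0.39 in ELA and 0.70 in NPC/Neu, the former 0.02 in that normalization. Slc1a3 had -0.80 in NPC and 0.18 in NPC/Neu. The 0.18 was beyond 2 spot SD with the spot SD of bright probes, 0.08, but not with that over all 399 probes, 0.13.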

How the results depend on the processing

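No paired analysis was possible because each condition had 1 array and the labels gave no replicate numbers. In this section the spot SD is that over all 399 probes printed in 10 spots, whatever their brightness. Of 120 recomputed medians and counts of the 8 markers 108 moved by no more than 1 spot SD, or by no more than 1.5 times for counts. The median total RNA change from ELA to NPC was 1.68 with an offset of 0 and 1.70 with the processed signal, quantile normalized. That from ES to NPC/Neu was 2.69 with an offset of 16, 2.72 with an offset of 0 and 2.81 with the processed signal, quantile normalized. Scaled to the 75th percentile, the processed signal gave a median Ago enrichment of -0.25 in ELA and 0.39 in NPC/Neu, but there the median of all genes also shifted, to -0.31 and -0.35, and to -0.57 in ES cells. Quantile normalization within each kind of RNA gave medians of 0.42 in ES cells, 0.13 in ELA and 0.22 in NPC, and turned the Ago enrichment of Msi1 in NPC/Neu to 0.10 and of Prom1 in ELA to 0.02. With only probes well above background, where Fabp7 drops out in ES cells, the median Ago enrichment was 0.39 in ES cells and its variation from ES to ELA -0.47. Of 702 values of single markers 596 stayed within 1 spot SD. In all 20 changed sign, of which 18 lay within 2 spot SD of 0 as reported and the other 2 are those of Msi1 and Prom1. Against the spot SD of probes of similar brightness, more of them lay beyond 2 spot SD. The Ago enrichment of Fabp7 in ELA (-0.22) read 0.07 with each kind of RNA normalized on its own. There the variation of Vim from ELA to NPC (0.19) read -0.35, and that of Fabp7 from NPC to NPC/Neu (0.31) read -0.16. The counts and the median from ES to NPC/Neu were added to the recomputed results after the data had been seen. The cause of these shifts was not tested. Dim signal limited Pax6 probe 1 in ES cells and ELA and Fabp7 in ES cells.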
